A study of Homo sapiens with 4 samples.

Results

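The nuclear genes of the oxidative phosphorylation complexes were taken from the expression table by symbol, as the subunits and assembly factors named NDUF, UQCR, COX4 to COX8, ATP5 and SDH together with CYC1 and CYCS. Hyphenated symbols were left out, which removed 3 names. The rule took 92 of the 14431 genes in the table: 43 of complex I, 6 of complex II, 9 of complex III, 14 of complex IV, 15 of complex V, the single gene of cytochrome c, and 4 further symbols that are pseudogenes or carry the name without being listed as subunits (ATP5S, ATP5SL, NDUFV2P1 and UQCRFS1P1). Symbols are those of the table, in which ATP synthase genes carry their older names (ATP5F1 is now ATP5PB). NDUFA4 and NDUFA4L2 were placed with complex IV, the complex in which NDUFA4 is now known to reside.

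Total RNA of HGC27 cells, an established human gastric cancer line, was sequenced in 2 control libraries labelled WT and 2 siAARS1 libraries labelled AARS1 knockdown. AARS1 encodes alanyl-tRNA synthetase, which the study examines as a lactyltransferase. Both groups were kept in glucose-free DMEM with serum and 25 mM lactate, for 24 h according to the labels (the text of the study gives another duration), so that no library without lactate was available for comparison. Whether the control cells received a control siRNA and whether the replicates were separate cultures were not stated in the labels, so the p-values measure the spread between these libraries, which may be technical.

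Oxidative phosphorylation couples electron transport to ATP synthesis in the inner mitochondrial membrane. Complex I takes electrons from NADH and complex II from succinate, coenzyme Q carries them to complex III, cytochrome c carries them on to complex IV, and complex IV passes them to oxygen. The proton gradient built by complexes I, III and IV drives complex V, the ATP synthase. Most subunits are encoded in the nucleus and imported, whereas a small set, including the catalytic center of complex IV, is encoded by the mitochondrial genome. The table lists none of the genes encoded by mitochondrial DNA, so the values below describe the nuclear partners alone.

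The deposited values were CPM, read counts scaled to the same total in each library, in which 1 read was worth 0.0293 to 0.0324 CPM and 30653210 to 33522573 reads fell on the listed genes per library. Expression of AARS1, listed under its older symbol AARS, was 428 and 417 CPM in the controls and fell to 292 and 298 CPM, 69.7% of the control mean. None of 7 gastric epithelial markers and 2 of 5 epithelial markers (KRT8 and CDH1) were listed among the genes, whereas VIM and ZEB1 of 3 mesenchymal markers and all 4 fibroblast markers were. Several of these moved with the knockdown, in different directions. KRT8 was 24.8 and 25.2 CPM in the controls and 6.61 and 5.08 CPM in the siAARS1 libraries, and ZEB1 rose from 6.16 and 6.84 CPM to 50.03 and 52.3 CPM. LUM went from 118 and 125 CPM to 211 and 225 CPM, COL3A1 from 3654 and 3755 CPM to 2627 and 2610.3 CPM, and COL1A1 from 2320 and 2399 CPM to 1644 and 1541 CPM. VIM (5131 and 5068 CPM, then 4710 and 4600 CPM) and DCN (239 and 250.3 CPM, then 258 and 270.1 CPM) moved less. The part of these genes in the results below was not tested. These are bulk libraries, in which fewer cells with a transcript and less transcript per cell cannot be told apart.

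The nuclear oxidative phosphorylation genes were lower on balance in the siAARS1 libraries, by small amounts. Fold changes were computed as differences of log2(CPM + 1), siAARS1 minus control, and tested with limma across the 14199 genes whose average reached 1 CPM in either group, with Benjamini-Hochberg adjustment and a threshold of 0.05. All 92 members passed this filter. Of these, 59 were lower, 10 were higher and 23 were not called, while 38.0% of all genes tested were called lower and 32.6% higher (70.7% in both directions). The median log2 fold change of the members was -0.16, compared with -0.05 over all genes tested, and the members ranged from -1.09 to 0.79. Only COX6B2 was called and at least 2-fold lower (1.63% of all genes tested), and 0 members were called and at least 2-fold higher (10.6% of all genes tested). Scaling the libraries to equal medians shifted the whole table, from a median of -0.05 to -0.27, and 80 members were then lower and 5 higher, against 56.8% and 23.6% of all genes tested.

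**Figure D1:**
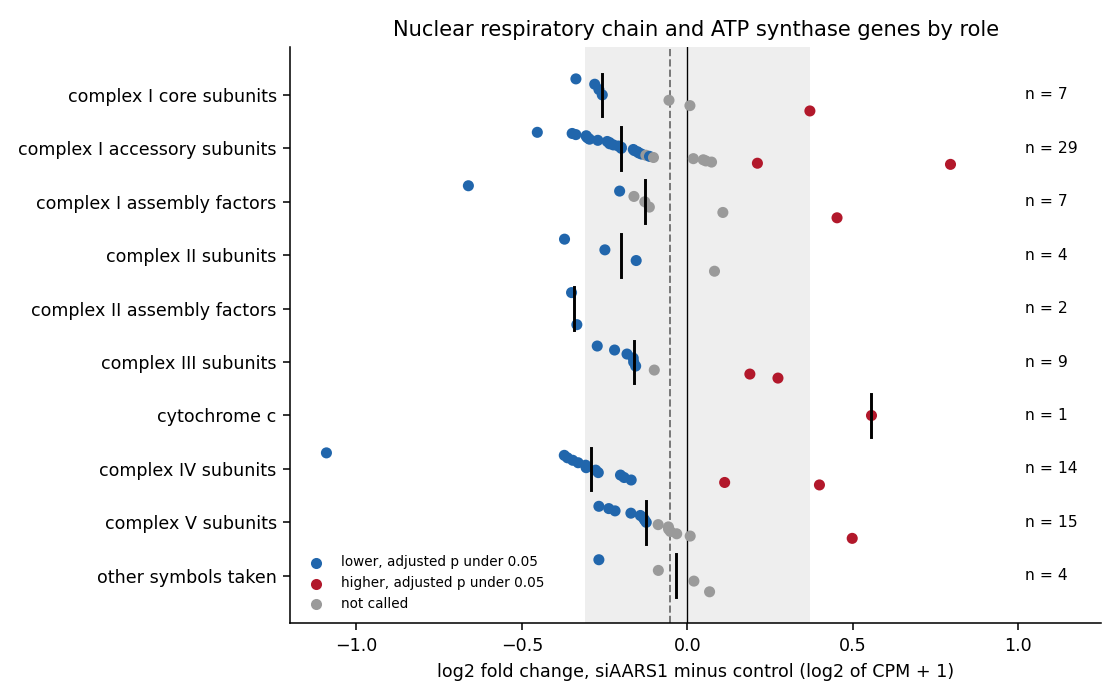
Log2 fold change of each member (x axis, log2 of CPM + 1, siAARS1 minus control) by role (y axis), with points colored by the limma call, a black bar at the median of each role, and the dashed line and gray band at the median and quartiles of all genes tested. Most points lie left of 0, and the 10 higher members are spread over complexes I, III, IV, V and cytochrome c.

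The spread between the control replicates bears on this count. In the control group 79 of the 92 members were higher in replicate 1 than in replicate 2, against 43.9% of all genes tested, and the median difference of the members was 0.07 on the log2 scale. In the siAARS1 group 47 of 92 were higher in replicate 1, with a median difference close to 0. Both siAARS1 libraries lay below both controls for 67 members and above both for 12, compared with 46.6% and 38.5% of all genes tested. Without control replicate 1, 45 members were lower, 10 were higher and the median log2 fold change was -0.13, whereas without control replicate 2 the counts were 60 and 9 and the median was -0.22.

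**Figure D2:**
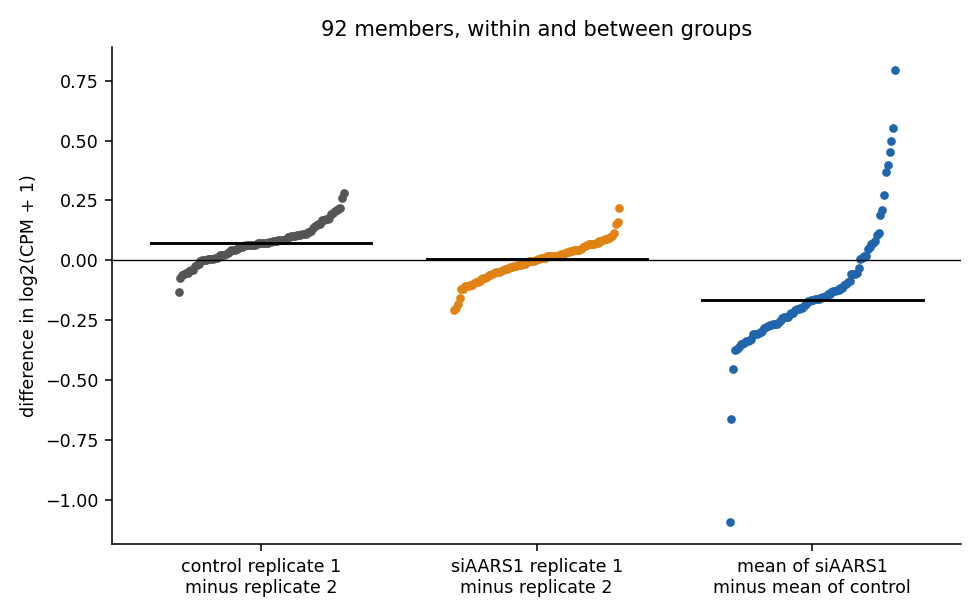
Differences in log2(CPM + 1) for the 92 members (y axis) between the control replicates, between the siAARS1 replicates and between the group means (x axis), each sorted by size, with bars at the medians. The control replicates differ by a median of 0.07 and the groups by a median of -0.16.

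The counts by complex are to be read against 38.0% lower and 32.6% higher among all genes tested. Groups without overlap are to be read against 46.6% of all genes tested with both siAARS1 libraries below both controls, and 38.5% above. Among the core subunits of complex I, which hold the flavin and iron-sulfur clusters that carry electrons, 4 of 7 were lower and 1 was higher. NDUFS7 was 184 and 182 CPM in the controls and 149 and 140 CPM in the siAARS1 libraries. NDUFV1, the subunit that binds NADH and flavin, was 240 and 229 CPM in the controls and 192 and 194 CPM in the siAARS1 libraries. NDUFS8 was also lower, with a log2 fold change of -0.27, and the groups did not overlap for these genes. The largest iron-sulfur subunit, NDUFS1, went the other way. It rose from 143 and 145 CPM in the controls to 184 and 190 CPM, a log2 fold change of 0.37 ± 0.04 (SE, adjusted p = 3.4e-08 by limma). Under the corrections for GC content and length described further on, NDUFS1 was 0.19 on the transcript of median length but -0.27 on the coding sequence and -0.84 on the longest transcript, called each time, so its direction depends on the sequence used. NDUFS7, NDUFV1 and NDUFS8 were no longer lower, at 0.01, 0.06 and 0.04 on the transcript of median length.

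The accessory subunits surround this core and take part in assembly and stability. Of 29, 21 were lower, 2 were higher and 6 were not called. NDUFA7 fell most, from 90.0 and 84.0 CPM in the controls to 63.6 and 62.9 CPM (log2 fold change -0.45 ± 0.05, adjusted p = 4.1e-08 by limma). Its identifier belongs to a GENCODE model that overlaps both NDUFA7 and the neighboring gene CD320, so this value is uncertain. NDUFA13, also known as GRIM-19, fell from 375 and 338 CPM to 283 and 275 CPM (-0.35 ± 0.04), a difference that was not called under any of the GC content and length corrections (-0.02 on the transcript of median length, adjusted p = 0.70 by limma). The siAARS1 libraries were below both controls for NDUFA7 and NDUFA13. NDUFB9 was the most abundant member per length, at 3535 CPM per kb of transcript in the controls against a median of 109 CPM per kb over the members. Its CPM values were 2588 and 2438 in the controls and 2203 and 2171 in the siAARS1 libraries, a fall of 0.20 on the log2 scale (0.02 and not called after GC content and length correction), and it overlaps TATDN1 and MTSS1 on the other strand.

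NDUFA5, an accessory subunit of the matrix arm, showed the largest rise of all 92 members. It was 39.5 and 37.7 CPM in the controls and 64.1 and 71.5 CPM in the siAARS1 libraries, 176% of the control mean (log2 fold change 0.79 ± 0.06, adjusted p = 7.4e-11 by limma). Both siAARS1 libraries were far above both controls. NDUFS4 rose less, with a log2 fold change of 0.21 (-0.02 and not called under median scaling). GENCODE lists 12 pseudogenes named after NDUFA5, and reads could have been divided between the gene and its copies in counting, so that the NDUFA5 value is uncertain. Its transcript has 36.4% GC, and all genes tested from 35 to 37.5% GC had a median log2 fold change of 1.03. After the GC content and length correction NDUFA5 was 0.05 and not called, but 0.70 on the coding sequence.

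Assembly factors of complex I bring the modules together and are not part of the finished enzyme. NDUFAF3 had the largest fall of any complex I gene, from 58.3 and 55.2 CPM in the controls to 35.3 and 35.7 CPM (log2 fold change -0.66 ± 0.06, adjusted p = 8.0e-10 by limma), with no overlap between the groups. Its partner in early assembly, NDUFAF4, rose from 15.4 and 15.3 CPM to 20.5 and 22.4 CPM (0.45 ± 0.08, adjusted p = 3.6e-05 by limma), again without overlap. NDUFAF2 was lower at -0.20. The log2 fold changes of NDUFAF1, NDUFAF5, NDUFAF7 and NDUFAF6 were -0.16, -0.13, -0.12 and 0.11, and none of them was called. Under the corrections described further on, the transcript of median length gave 6 of 7 factors lower and 0 higher (median -0.30). On the coding sequence 5 were lower and 0 higher (median -0.31), against 33.9% lower among all genes with a coding sequence. NDUFAF1, NDUFAF5 and NDUFAF7 were called lower in both, at -0.43, -0.31 and -0.52 on the coding sequence. NDUFAF4 turned to -0.43 on the transcript and was 0.16 and not called on the coding sequence. NDUFAF8 was not among the listed genes.

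Of complex II, 5 of 6 genes were lower and none was higher. SDHA, the flavoprotein that oxidizes succinate, was 223 and 222 CPM in the controls and 175 and 168 CPM in the siAARS1 libraries (log2 fold change -0.37 ± 0.04, adjusted p = 2.3e-08 by limma). SDHB, the iron-sulfur subunit, was 109 and 101 CPM in the controls and 86.1 and 89.8 CPM in the siAARS1 libraries (-0.25 ± 0.05). Control and siAARS1 values did not overlap for either gene. Of the membrane anchors, SDHC fell by 0.15 and SDHD was not called, with values of 33.2 and 29.9 CPM in the controls and 33.6 and 33.2 CPM in the siAARS1 libraries. Assembly factors SDHAF1, which helps insert the iron-sulfur clusters, and SDHAF2, which helps attach the flavin, fell by 0.35 and 0.33.

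In complex III, 6 of 9 genes were lower and 2 were higher. UQCRC1, a core protein facing the matrix, was 260 and 258 CPM in the controls and 220 and 208 CPM in the siAARS1 libraries, and the Rieske iron-sulfur protein UQCRFS1 was 335 and 334 CPM in the controls and 284 and 289 CPM in the siAARS1 libraries. Both genes separated the groups without overlap, with log2 fold changes of -0.27 and -0.22. The small subunits UQCRQ and UQCRH fell by 0.18 and 0.16, and UQCR10 was not called at -0.10. UQCRC2, the other core protein, rose from 182 and 178 CPM to 207 and 203 CPM, and UQCRB rose from 201 and 195 CPM to 233 and 247 CPM. The cytochrome subunit CYC1, which hands electrons to cytochrome c, and CYCS itself moved in opposite directions. CYC1 was 281 and 273 CPM in the controls and 253 and 241 CPM in the siAARS1 libraries (-0.16 ± 0.04, adjusted p = 0.00071 by limma). CYCS was 319 and 304 CPM in the controls and 442 and 475 CPM in the siAARS1 libraries, 147% of the control mean (0.55 ± 0.04, adjusted p = 5.3e-11 by limma). The groups did not overlap for either gene, with CYC1 lower and CYCS higher. CYCS has 40 pseudogenes by name in GENCODE, and its value is uncertain to the extent that reads were shared with them.

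All 14 nuclear genes of complex IV, cytochrome c oxidase, were called, 12 lower and 2 higher, with a median log2 fold change of -0.29. Under median scaling 13 were lower and 0 higher, next to 6 of 6 in complex II and 14 of 15 lower in complex V. That scaling shifted the whole table, and 56.8% of all genes tested were then lower. Correcting for GC content and transcript length, as described further on, left 10 of the 14 lower and 2 higher. COX4I1, a subunit that contacts the mitochondrially encoded core, was 461 and 440 CPM in the controls and 363 and 354 CPM in the siAARS1 libraries (-0.33 ± 0.04, adjusted p = 6.0e-08 by limma). COX8A was 292 and 284 CPM in the controls and 231 and 217 CPM in the siAARS1 libraries (-0.36 ± 0.04). COX6A1 was 216 and 223 CPM in the controls and 176 and 163 CPM in the siAARS1 libraries (-0.37 ± 0.04). In each of these genes the siAARS1 libraries were below both controls.

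Of the tissue-restricted paralogs of complex IV, COX4I2, COX6A2, COX7A1, COX7B2 and COX8C were not among the listed genes. COX7A2 was 99.7 and 94.0 CPM in the controls and 70.8 and 81.4 CPM in the siAARS1 libraries, and COX7A2L, which takes part in supercomplexes, was 125 and 125 CPM in the controls and 102 and 99.9 CPM in the siAARS1 libraries. Both fell without overlap, by 0.35 and 0.31. COX6B1 fell by 0.20 and its testis paralog COX6B2 by 1.09, the latter from 2.35 and 1.80 CPM (80 and 57 reads) to 0.550 and 0.331 CPM (17 and 11 reads). With so few reads the fold change of COX6B2 depends on the pseudocount, and on the CPM scale its siAARS1 mean was 21.3% of the control mean. NDUFA4 fell by 0.17 while its paralog NDUFA4L2 was 5.02 and 4.57 CPM in the controls and 6.83 and 6.44 CPM in the siAARS1 libraries (0.40 ± 0.12, adjusted p = 0.0051 by limma). COX7B, at 218 and 215 CPM in the controls and 233 and 236 CPM in the siAARS1 libraries, was the other higher gene.

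**Figure D3:**
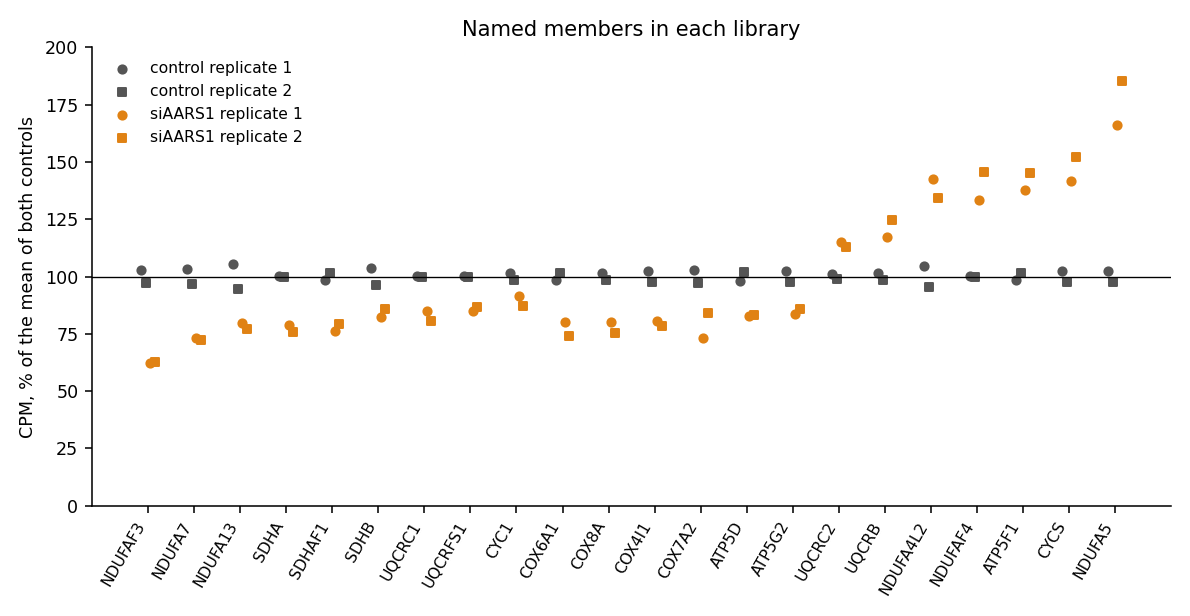
CPM of 22 named members in each of the 4 libraries (y axis, percent of the mean of both controls, from 0), with control libraries in gray and siAARS1 libraries in orange. NDUFAF3 is lowest and NDUFA5 highest in the siAARS1 libraries, and the groups do not overlap for any gene shown.

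Of the 15 genes of complex V, 8 were lower, 1 was higher and 6 were not called, against 38.0% lower and 32.6% higher among all genes tested. ATP5D, the delta subunit of the rotating stalk, was 198 and 206 CPM in the controls and 168 and 168 CPM in the siAARS1 libraries (-0.27 ± 0.04, adjusted p = 2.9e-06 by limma). The 3 genes that encode the same subunit c of the membrane ring differed in their calls. ATP5G2 was 527 and 502 CPM in the controls and 430 and 442 CPM in the siAARS1 libraries, and ATP5G3 was 373 and 346 CPM in the controls and 305 and 312 CPM in the siAARS1 libraries. Both fell without overlap, by 0.24 and 0.22, whereas ATP5G1, at 92.8 and 87.5 CPM in the controls and 87.1 and 85.9 CPM in the siAARS1 libraries, was not called. Whether these changes differ from each other was not tested. The catalytic subunit ATP5B fell by 0.12 and was 2184 and 2169 CPM in the controls and 2000.3 and 1993 CPM in the siAARS1 libraries. After GC content and length correction ATP5B was higher by 0.07 on the transcript of median length (adjusted p = 0.013 by limma). On the coding sequence it was lower by 0.13 (adjusted p = 0.00015 by limma), so its corrected direction depends on the sequence used. ATP5A1 was not called at -0.03, but was called lower at -0.23 on the coding sequence. ATP5F1, subunit b of the peripheral stalk, rose from 164 and 169 CPM to 229 and 241 CPM (0.50 ± 0.04, adjusted p = 3.0e-10 by limma).

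The direction of change followed the GC content of the transcript, in the members and in the whole table. Spearman's rho between log2 fold change and GC content was -0.59 across the 92 members and -0.65 across 13819 genes, which share the same libraries and are not independent replicates. Of the 24 members with 55% GC or more, 22 were lower and 1 was higher, with a median log2 fold change of -0.29, against 65.5% lower and a median of -0.28 for all genes in that range. Of the 23 members under 45% GC, 7 were lower and 7 higher with a median of 0.01, whereas 72.0% of all genes in that range were higher and their median was 0.57. The 45 members between these bounds had a median of -0.16 (all genes -0.10). Of the 10 higher members, NDUFA4L2 had a GC content of 62.7% and the other 9 had at most 45.5%.

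**Figure D4:**
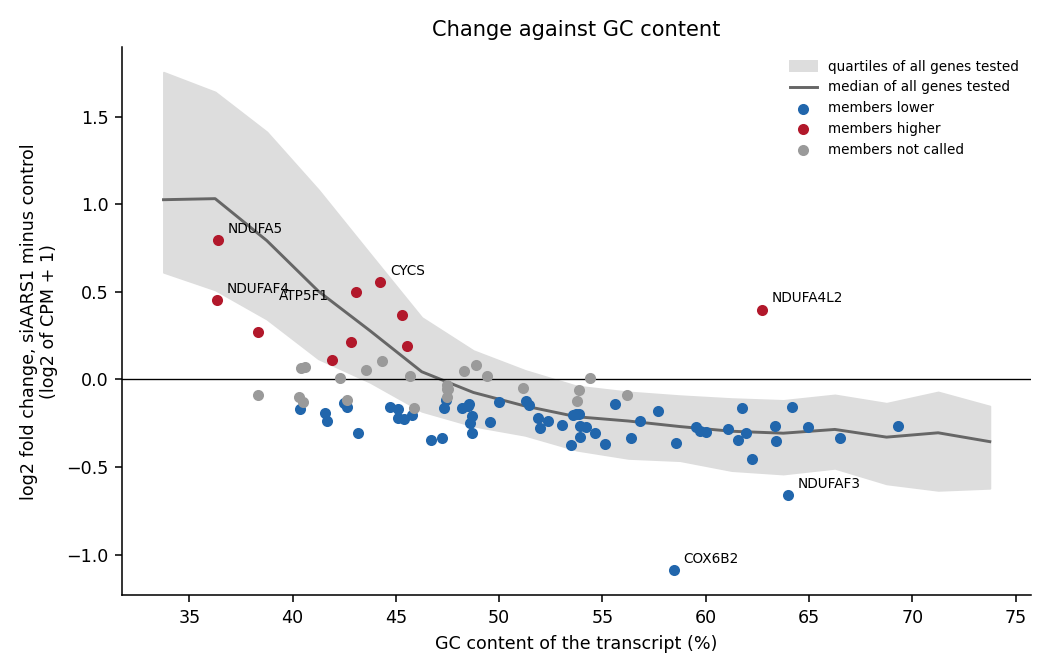
Log2 fold change (y axis, log2 of CPM + 1, siAARS1 minus control) against transcript GC content (x axis, percent) for the 92 members, over the median and quartiles of all genes tested in GC bins. Members of low GC content lie mostly under the median of all genes, and members of high GC content lie near it.

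When each library was corrected for GC content and transcript length, 37 members were lower and 15 higher, with a median log2 fold change of -0.04, and 33.6% of all genes were lower and 32.6% higher. Of the 59 lower members 27 were still lower and 5 had turned higher. With the coding sequence in place of the whole transcript 32 members were lower and 17 higher, against 33.9% and 33.4% of all genes with a coding sequence. In complex IV 10 of 14 were lower and 2 higher after the transcript correction, and 9 and 2 after the coding correction, and in complex II 4 and then 3 of 6 were lower. In complex III 3 of 9 were lower and 3 higher after the transcript correction, and 0 and 3 after the coding correction. In complex V 4 of 15 were lower and 3 higher, and then 7 and 4. In complex I 15 of 43 were lower and 4 higher, and then 13 and 5. CYCS was 0.49 and 0.55 under these corrections and COX4I1 -0.10 and -0.11. With the longest annotated transcript, run first, 39 members were lower and 21 higher, CYCS turned to -0.14 (adjusted p = 0.00166 by limma) and COX4I1 was at -0.0014 and not called. NDUFA5 was 0.05 and no longer called under the transcript correction but 0.70 under the coding correction. The core subunits of complex I, 4 of 7 lower at first, had 0 lower and 2 higher after the transcript correction and 3 lower and 2 higher after the coding correction. NDUFAF4, UQCRB and CYC1 changed sign under the transcript correction and were called in the new direction, at -0.43, -1.09 and 0.18. On the coding sequence UQCRB was still called higher at 0.15, so its direction depends on the sequence used. NDUFAF4 was 0.16 and not called there, and CYC1 was called higher at 0.19. The 5 lower members that turned higher were CYC1, UQCR11, UQCRQ, ATP5G2 and ATP5B, the last 4 at 0.17, 0.09, 0.07 and 0.07, and ATP5G1, not called before, was called higher at 0.14. On the coding sequence ATP5B was called lower at -0.13, and UQCR11, UQCRQ and ATP5G2 were not called. ATP5G1 was called higher there at 0.18. UQCRC1, ATP5D and ATP5F1 changed sign under the transcript correction and were not called, at 0.06, 0.05 and -0.0033. On the coding sequence ATP5F1 was still called higher at 0.41, ATP5D was called higher at 0.13, and UQCRC1 was 0.02 and not called. Under median scaling UQCRC2 and COX7B turned from higher to -0.05 and -0.12. Whether GC content and length are themselves the source of the differences was not tested.

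**Figure D5:**
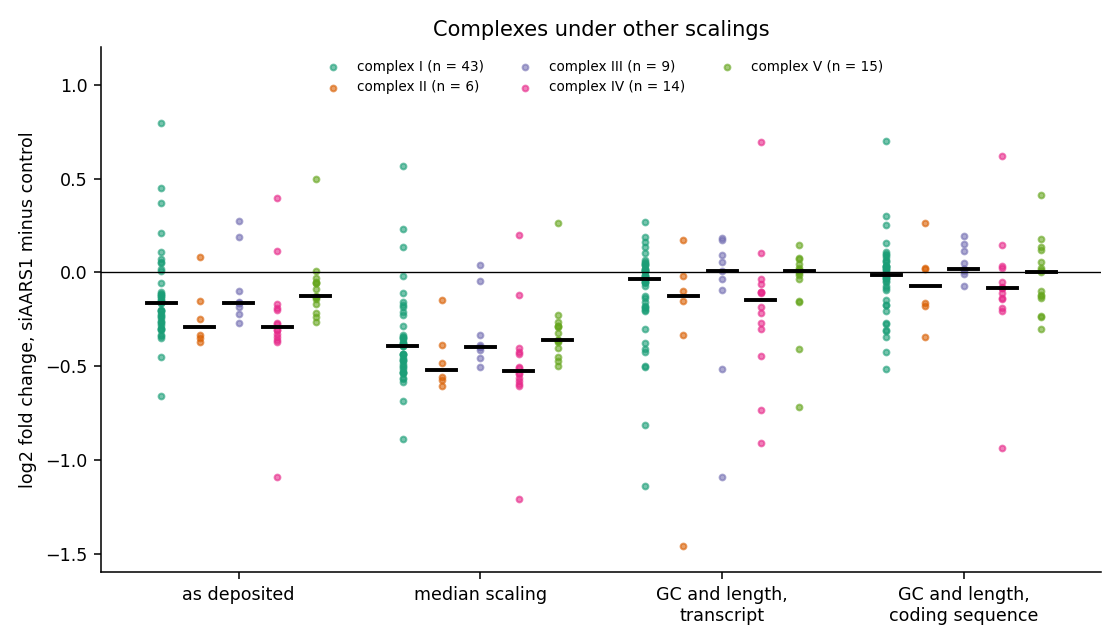
Log2 fold changes of the members (y axis) by complex as deposited, after median scaling and after GC content and length corrections (x axis), with bars at the medians. After the corrections the medians of complexes I, III and V lie near 0 and those of complexes II and IV lie below 0.

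Over all 18 settings run, 15 of the 92 members were called lower in every one. This share was close to the 16.7% of the 12209 genes that had a value in each setting. For calls of higher in every setting the count was 0 members, against 9.71% of those genes. Of the 15, 8 were in complex IV (COX6B2, COX6A1, COX8A, COX7A2, COX7A2L, COX6C, COX7C and NDUFA4), 4 in complex I (NDUFA7, NDUFB6, NDUFC2 and NDUFAF3), 2 in complex II (SDHA and SDHB) and 1 in complex V (ATP5H). In complex III 0 genes were lower in every setting. These genes were singled out after their values were seen, and the value of NDUFA7 is uncertain because its identifier also overlaps a neighboring gene.

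Factors that act on the complexes, and a few subunits with other names, lie outside the symbols above and were counted by lists. The counts are to be read against 38.0% lower and 32.6% higher among all genes, or 56.8% and 23.6% under median scaling. Of 22 listed assembly factors of complex IV, 8 were lower and 3 higher (17 and 2 under median scaling). Most of these changes were small, with the exceptions of LRPPRC, which stabilizes mitochondrial mRNAs, at 89.7 and 97.2 CPM in the controls and 428 and 449 CPM in the siAARS1 libraries (2.22 ± 0.04, adjusted p = 1.7e-20 by limma), and SURF1, at 32.5 and 29.3 CPM in the controls and 18.7 and 16.7 CPM in the siAARS1 libraries. Of 10 further complex I genes, 4 were lower (8 under median scaling), TMEM186 most at -0.28, and 2 were higher, TMEM126B most at 0.75. The acyl carrier subunit NDUFAB1, among these 10, was not called at -0.06. Of 5 complex III assembly factors, 2 were lower and 1 was higher (3 and 1 under median scaling), and UQCC2 changed by -0.25 (0.03 once corrected for GC content and length) and LYRM7 by 1.06 (-0.42 after it). Of 6 complex V factors and small subunits, 2 were lower (6 under median scaling) and 0 higher, ATPAF2 most at -0.23 (0.06 after the correction). The small subunits USMG5 and C14orf2 were not called, at -0.03 and -0.02. Of 17 genes of coenzyme Q synthesis and other electron donors, 5 were lower and 5 higher (10 and 2 under median scaling), COQ5 at -0.52 and GPD2, the glycerol phosphate dehydrogenase of the inner membrane, at 1.30.

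Of 14 listed regulators of these genes and of mitochondrial DNA, 8 were higher and 3 lower, with a median log2 fold change of 0.21. This balance depended on the scaling, since 5 were higher and 5 lower under median scaling, with a median of -0.02. After the GC content and length correction 9 were higher and 2 lower (median 0.15), against 32.6% and 33.6% of all genes. On the coding sequence 11 were higher and 2 lower (median 0.29), against 33.4% and 33.9%. GABPA, the DNA-binding subunit of NRF-2, was 4.46 and 5.52 CPM in the controls and 26.8 and 27.9 CPM in the siAARS1 libraries (2.25 ± 0.10, adjusted p = 1.2e-14 by limma), with no overlap. TFAM, which packages and transcribes mitochondrial DNA, was 25.7 and 27.2 CPM in the controls and 58.8 and 66.3 CPM in the siAARS1 libraries (1.21 ± 0.06). After the GC content and length correction on the transcript of median length TFAM was -0.10 and not called, and GABPA was 0.86. The direction of TFAM did not reverse on the coding sequence. POLRMT, the mitochondrial RNA polymerase, fell by 0.24 but was higher by 0.15 after the correction, and NRF1 was not called at 0.07 (-0.15 under median scaling). GABPA overlaps ATP5J on the other strand, and ATP5J was not called at -0.06.

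Several members start close to a gene on the opposite strand. Within 1000 bases of the annotated gene start, 30 members had a protein-coding partner that was tested. Of 16 lower members among them, the partner was lower in 8, higher in 4 and not called in 4. Over all 30 pairs, 12 partners were higher, 10 were lower and 8 were not called. Among all genes tested 38.0% were lower and 32.6% higher. NDUFB1 fell by 0.21 while CPSF2, whose start lies 20 bases away, was 71.1 and 70.6 CPM in the controls and 170 and 181 CPM in the siAARS1 libraries. After GC content and length correction CPSF2 turned to -0.18 (adjusted p = 0.00028 by limma) and NDUFB1 was at -0.14. NDUFAF7 was not called while CEBPZ was 13.5 and 12.6 CPM in the controls and 96.2 and 99.7 CPM in the siAARS1 libraries. SDHA and its partner CCDC127, 26 bases away, both fell, although CCDC127 was not called after that correction (-0.06). The strand used in counting was not given in the sources used here, so reads of overlapping pairs cannot be told apart.

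Promoter sequences were compared because most of the members moved in 1 direction. Of the 92 members, 73 had a RefSeq promoter of GRCh38.p14 (250 bases before the start and 50 after). The NRF1 motif, a palindrome searched with any base allowed at 1 position, was found, on either strand, in 21.9% of them, the ETS motif CCGGAAG in 28.8%, the YY1 motif GATGGCGG in 13.7%, the SP1 motif GGGCGG in 57.5% and the TEAD motif GGAATG in 9.59%. The shares in all 35116 promoters of the reference were 5.78%, 10.3%, 2.34%, 44.95% and 14.03%, and in the 10320 tested genes with a promoter 12.1%, 19.4%, 4.75%, 70.6% and 10.6%. GGGCGG was in 31 of 46 lower members, 2 of 9 higher members and 9 of 18 members not called. The NRF1 motif was in 10 of 46, 0 of 9 and 6 of 18, so its share was largest among the members not called. A match is a string of letters and not evidence of binding. The 250 bases before the start of the 2 members that rose most and the 2 that fell most, among those whose window holds no annotated exon and with a level of at least 5 CPM, are given on the coding strand, 5′ to 3′, with the motifs in capitals.
NDUFAF4: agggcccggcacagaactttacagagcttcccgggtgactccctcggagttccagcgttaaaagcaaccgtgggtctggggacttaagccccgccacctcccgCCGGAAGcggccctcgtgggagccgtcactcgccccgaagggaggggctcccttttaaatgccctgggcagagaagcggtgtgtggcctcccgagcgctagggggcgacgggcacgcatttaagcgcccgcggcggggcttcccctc
NDUFA4L2: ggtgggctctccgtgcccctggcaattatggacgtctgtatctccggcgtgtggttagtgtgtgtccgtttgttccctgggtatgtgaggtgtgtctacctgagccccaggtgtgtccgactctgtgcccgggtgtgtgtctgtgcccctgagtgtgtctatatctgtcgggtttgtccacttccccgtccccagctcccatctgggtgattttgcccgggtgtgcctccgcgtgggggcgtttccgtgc
SDHAF1: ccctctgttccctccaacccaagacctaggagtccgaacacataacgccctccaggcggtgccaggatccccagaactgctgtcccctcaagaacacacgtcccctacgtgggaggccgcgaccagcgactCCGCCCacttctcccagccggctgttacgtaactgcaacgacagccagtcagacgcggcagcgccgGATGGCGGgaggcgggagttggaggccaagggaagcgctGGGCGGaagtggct
NDUFB7: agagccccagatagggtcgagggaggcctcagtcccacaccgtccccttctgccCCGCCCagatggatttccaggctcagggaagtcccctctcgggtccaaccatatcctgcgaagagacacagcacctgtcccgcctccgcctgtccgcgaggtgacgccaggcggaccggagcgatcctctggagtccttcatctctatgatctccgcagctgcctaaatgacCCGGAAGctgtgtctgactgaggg
NDUFAF4 is at chr6:96897892-96898141 (minus strand), NDUFA4L2 at chr12:57240763-57241012 (minus strand), SDHAF1 at chr19:35994938-35995187 (plus strand) and NDUFB7 at chr19:14572067-14572316 (minus strand). The 2 higher members hold 1 ETS motif, in NDUFAF4, whose first base lies 147 bases before the start. Of the lower members, SDHAF1 holds the SP1 motif at 119 and 14 bases and the YY1 motif at 53 bases before the start, and NDUFB7 holds the SP1 motif at 196 bases and the ETS motif at 24 bases before the start.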

How the data were processed

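Members and lists were chosen with earlier results of these data known. Per the labels, libraries of total RNA were made with Illumina's protocol, and the submitters' processing notes name hg38 and RSEM 1.3.3; the aligner, the annotation and the strand setting are not given in the sources used here. The authors deposited one table of CPM values for the 4 libraries. Its steps gave whole reads for 100% of values (tolerance 0.02 reads), which recovered 30653210 to 33522573 reads per library. These reads entered edgeR 4.0.16 and DESeq2 1.42.0 as alternatives. The smallest detectable level, 3 reads, was 0.0880 to 0.0971 CPM, and this floor covers counting error only.

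The main test was limma 3.58.1 (R 4.3.3) with a mean-variance trend on log2(CPM + 1), for genes with at least 1 CPM as the mean of 1 group, 2 libraries against 2, without a replicate block. Named genes were, per complex, the 3 largest falls and 2 largest rises among called genes of at least 5 CPM with separate groups, plus CYC1, CYCS, the SDH subunits, paralogs and NDUFAF genes, and from each outside list the largest rise and fall. Other genes named were chosen after their values were seen. The threshold was an adjusted p of 0.05.

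GC content and length came from GENCODE v29, which held 97.2% of the identifiers and all 92 members, and were corrected per library with mgcv 1.9.3. The plan did not say which transcript to use. The longest was run first and gave implausible lengths for several members, so the transcript of median length was adopted after those values were seen. The longest transcript and the coding sequence were then kept as added alternatives, and the results of all are given. SDHC, NDUFA9, UQCRB, NDUFAF5, ATP5S and NDUFA4 have long annotated transcripts even so, and their corrected and per-length values are doubtful. The identifiers of NDUFA7, NDUFB8, SDHD and UQCR11 belong to GENCODE models that overlap both the gene of that symbol and a neighboring gene, so those values are uncertain. Alternatives were other scalings, pseudocounts, filters, thresholds, tools and leaving out each library. The fit was tested on simulated data. The values of 1 member are not reported here.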

Additional observations from a re-analysis of the deposited data

How the results depend on the processing

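Of the single genes named, none changed direction under the replicate block, another pseudocount, no filter or a stricter threshold. ATP5A1, not called, turned to 0.0048 with edgeR and TMM and 0.019 with edgeR and RLE or DESeq2, and NRF1, not called, turned to -0.033 without control replicate 1. The other reversals came from other scalings or from GC content and length. For all members, median scaling gave 5 higher and a median log2 fold change of -0.40, edgeR with RLE a median of -0.12 and DESeq2 a median of -0.12. Leaving out 1 library gave medians from -0.22 to -0.13, with 45 to 60 lower and 9 to 10 higher members. The GC content and length correction left 37 lower members and a median of -0.037 (with replicate block 36 and -0.037), the longest transcript 39 lower, 21 higher and -0.033, and the coding sequence 32 lower, 17 higher and -0.014. The last 2 were added after the data were seen, and so was the transcript of median length, which replaced the longest one after its values had been seen. The cause of these shifts was not tested.

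Log2 fold changes that reversed under median scaling were COX7B -0.12, NDUFAF6 -0.11, NDUFS4 -0.017, NRF1 -0.15, SDHD -0.15, UQCRC2 -0.045. Under quantile normalization they were ATP5B 0.037, NDUFAF6 -0.14, NRF1 -0.15, SDHD -0.11. Under the GC content and length correction, with and without the replicate block, they were ATP5B 0.072, ATP5D 0.047, ATP5F1 -0.0033, ATP5G1 0.14, ATP5G2 0.074, ATP5J 0.011, ATPAF2 0.059, CPSF2 -0.18, CYC1 0.18, LYRM7 -0.42, NDUFAF4 -0.43, NDUFAF6 -0.073, NDUFB9 0.020, NDUFS7 0.011, NDUFS8 0.041, NDUFV1 0.065, POLRMT 0.15, TFAM -0.10, UQCC2 0.031, UQCR11 0.17, UQCRB -1.09, UQCRC1 0.057, UQCRQ 0.094. With the longest transcript they were ATP5B 0.089, ATP5D 0.10, ATP5G1 0.23, ATP5G2 0.073, ATP5J 0.21, ATPAF2 0.067, COX6B1 0.11, COX7B -0.37, CPSF2 -0.12, CYC1 0.17, CYCS -0.14, LYRM7 -0.38, NDUFAF4 -0.34, NDUFAF6 -0.023, NDUFB9 0.085, NDUFS1 -0.84, NDUFS7 0.0049, NDUFS8 0.031, NDUFV1 0.050, POLRMT 0.14, TFAM -0.032, UQCC2 0.053, UQCR11 0.16, UQCRB -1.03, UQCRC1 0.064. On the coding sequence they were ATP5D 0.13, ATP5G1 0.18, ATP5G2 0.013, ATPAF2 0.053, COX6B1 0.021, CPSF2 -0.15, CYC1 0.19, NDUFAF6 -0.0197, NDUFB7 0.094, NDUFB9 0.021, NDUFS1 -0.27, NDUFS7 0.068, NDUFS8 0.11, NDUFV1 0.036, POLRMT 0.15, SDHAF1 0.024, SDHC 0.017, UQCR10 0.11, UQCR11 0.049, UQCRC1 0.017, UQCRC2 -0.072, UQCRH 0.019, UQCRQ 0.0062.

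The replicate numbers are shared by both groups but the labels do not say that they mark a common culture or day. Deviations from the group means correlated at 0.118 over 14199 genes between same-numbered libraries, with only 2 pairs. With the replicate block 62 members were lower and 10 higher, and no named gene lost its call. Among the single genes named, calls lost without control replicate 1 were SDHC, UQCRH, ATPAF2, TMEM186, NDUFB1 and UQCR11. Without control replicate 2 they were COX7B and NDUFAF2. Without siAARS1 replicate 1 they were SDHAF2, SDHC, NDUFAF2 and NDUFB1, and without siAARS1 replicate 2 ATPAF2, TMEM186 and UQCR11. Further members outside the named genes also lost their calls when 1 library was left out. With 2 libraries in a group, leaving out 1 leaves a lone library that is assumed to vary like the other group. Genes with few reads, such as COX6B2, are limited by depth.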
